A study of Eriocheir sinensis with 6 samples.

Results

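In walking-leg muscle of molting Chinese mitten crabs (Eriocheir sinensis), 188 well-expressed genes with introns had no called region of open chromatin in the gene or at its start. They were found among 1240 spliced annotated genes that ranked below the 100 most abundant and within the first 1500, and the other 1052 of these genes were touched by at least 1 peak. The 188 genes were shorter than the others, with a median genomic span of 4256.5 bp against 11242.5 bp, and their median level was lower in each of the 3 RNA-seq libraries. Of the members, 109 of 188 lay within 5 kb behind another listed gene on the same strand, against 320 of 1052 of the other genes. A peak of some library lay within 10 kb of the start in 137 of 188, a share with no background beside it.

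ATAC-seq uses a transposase that cuts DNA where nucleosomes and other proteins leave it exposed, and a peak caller marks the places where cuts pile up above the local background. The promoters of transcribed animal genes are usually among the most accessible parts of the genome, because the transcription machinery and its factors displace nucleosomes at the start of the gene. A called peak is a thresholded signal, so an accessible site with too few cuts is not listed. Crabs shed their shell to grow, and their limb muscle, best known from the claw, is partly broken down before the molt and grows back afterwards.

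The samples came from 3 untreated wild-type juvenile male crabs in the molt period, with the muscle of each crab split between 1 ATAC-seq and 1 RNA-seq library, named Mu_E_1, Mu_E_2 and Mu_E_3. The titles place the crabs in period E, while the design text writes D for the stage. All 6 libraries belong to 1 condition, so libraries were set against each other and genes against genes, and no treatment was compared. The tissue is bulk muscle, in which fewer cells of a type and less RNA per cell cannot be told apart.

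The members were selected on the measured values themselves. Annotated genes were ranked by the mean of the authors' FPKM (fragments per kilobase of gene length, scaled to a library depth that is not given in the sources used here) over the 3 RNA-seq libraries. A gene that ranked after the first 100 and within the first 1500 was a member when its genomic span exceeded its listed length, which means that it has introns, and when no peak interval of any ATAC-seq library touched its body or the 2 kb on either side of its start. Counts of members, levels, spans and distances to peaks therefore describe the selection and are given without a test. No member's identifier is paired with a gene name in the sources used here, so neither the roles of the members nor the muscle label was checked against known genes.

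The ATAC-seq lists held 52473, 44610 and 49831 peaks, and the RNA-seq libraries held 7088747, 7524721 and 7788537 fragments assigned to listed genes, recovered as whole numbers from FPKM and length. In the deposited FPKM, Mu_E_3 was the low library for most genes of these ranks. The median log2 difference of Mu_E_3 from Mu_E_1 was -0.63 over the members and -0.82 over the other genes, and when FPKM was recomputed on each library's own assigned fragments it became 0.67 and 0.48. A statement that Mu_E_3 is high or low for a gene therefore depends on the scaling.

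A touching peak was missing in 15.2% of the spliced genes of these ranks, the 188 members, and in 44.0% of all 18112 spliced annotated genes. The share rose with falling expression. It was 3 of 92 spliced genes (3.26%) at ranks 1 to 100, 23 of 355 (6.48%) from there to rank 500, 79 of 439 (18.0%) from there to rank 1000, 86 of 446 (19.3%) from there to rank 1500, and 63.3% beyond rank 12000. Members thus sat mostly in the lower part of the range, with a median rank of 956 against 761.5 for the other genes.

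The share also fell with genomic span, a property tied to the rule, since a longer gene offers more sequence for a peak to touch. No peak touched 49 of 110 genes (44.5%) with a span of up to 2 kb, 53 of 221 (24.0%) from 2 to 5 kb, 46 of 284 (16.2%) from 5 to 10 kb, 29 of 275 (10.5%) from 10 to 20 kb, and 11 of 350 (3.14%) above 20 kb. Short genes were therefore frequent among the members, and within short genes the share did not rise steadily with rank. At spans of up to 5 kb it was 12.4% between ranks 100 and 500, 41.8% between ranks 500 and 1000 and 37.1% between ranks 1000 and 1500. The members' listed length was short too, with a median of 654.5 bp against 1395.5 bp, and introns made up a median of 81.5% of the span against 87.4%. More of the members' lengths were a multiple of 3, as described below, so both measures may compare unlike gene models.

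**Figure D1:**
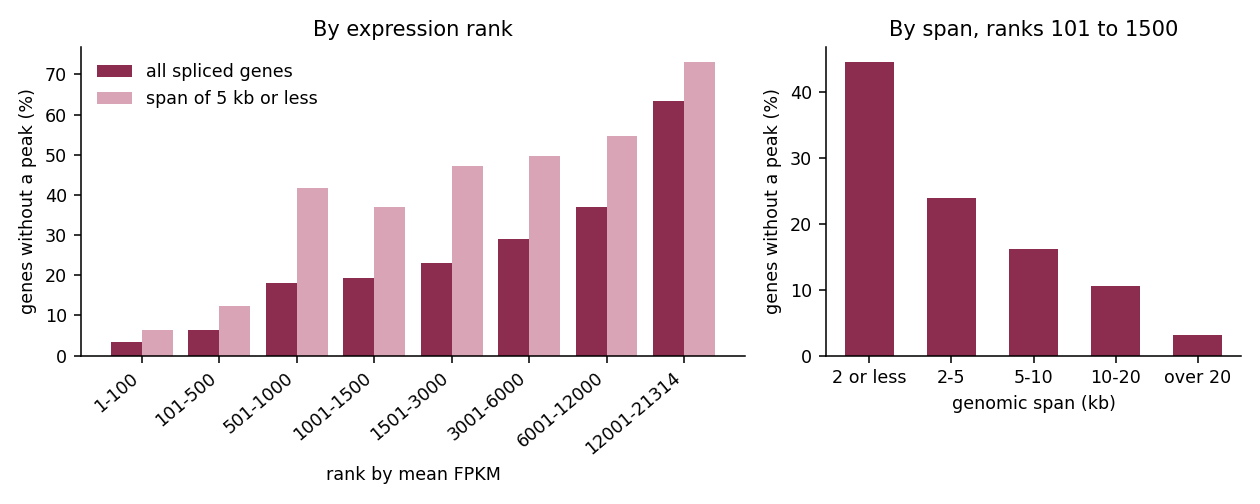
Share of spliced annotated genes touched by no peak of any library (vertical axes, %), by rank of mean FPKM on the left, for all span lengths and for spans of up to 5 kb, and by genomic span in kb on the right for the ranks of the members. The share climbs from 3.26% at ranks 1 to 100 to 63.3% at the lowest ranks, and drops from 44.5% to 3.14% from the shortest to the longest span class.

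The members were spread over the genome. They lay on 61 of the 72 chromosome-level sequences, with at most 8 on any of these and 1 on another sequence, and 83 were on the plus strand. Only 5 overlapped another listed gene, against 83 of the 1052 others, and none was a model joined from several predictions, against 21 of the others.

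The missing peaks were largely shared by a library that took no part in the choice. When genes without a peak were chosen on only 2 ATAC-seq libraries, the left-out library touched 29 of 217 with Mu_E_1 left out, 36 of 224 with Mu_E_2 left out and 41 of 229 with Mu_E_3 left out. This is 15.8% ± 2.28 (SD, n = 3 libraries). Genes with a peak in both of the other libraries were touched by the left-out library in 96.5% ± 3.20 of cases, and genes with a peak in 1 of them in 45.3% ± 13.9. Any single library alone left 287, 323 and 261 of the 1240 genes without a peak.

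The border of the rule was crossed mostly by weak peaks. Of the other genes, 851 of 1052 (80.9%) were touched in all 3 libraries, and 895 (85.1%) had a peak in the window around the start. At the opposite end, 95 genes were touched by exactly 1 peak of 1 library, with a median fold enrichment at the summit of 3.0, against 3.89 over all summits, and 26 of these peaks had a q-value of 1e-05 or less. The 3 of these genes with the highest mean FPKM were evm.TU.CM024164.1.233, at 1218, 952 and 714 in Mu_E_1, Mu_E_2 and Mu_E_3, evm.TU.CM024122.1.10, at 1454, 593 and 504, and evm.TU.CM024120.1.81, at 937, 1028 and 531. The last of these was kept out of the members by a peak of Mu_E_3 at 1792 bp from its start, with a fold enrichment of 1.81. Just inside the rule was evm.TU.CM024145.1.716, whose nearest peak lay 2014 bp from its start in Mu_E_1, 2019 bp in Mu_E_2 and 2014 bp in Mu_E_3.

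Expression of the members was well above detection, although the level was the lower of the 2 groups. Mu_E_1, Mu_E_2 and Mu_E_3 gave them a median FPKM of 78.2, 82.5 and 54.7 and a median of 240.5, 215 and 432.5 fragments per gene, while the other genes had medians of 102, 114 and 70.3. The difference of median log2(FPKM + 1), members minus other genes, was -0.38, -0.46 and -0.35, or -0.40 ± 0.05 (SD, n = 3 libraries). All 3 libraries had the same sign, and no test is given because the rule used these levels. When genes were ranked on 2 libraries and read in the left-out one, the difference was -0.49, -0.53 and -0.31, and 70.8% ± 4.53 of the members were still within the first 1500 ranks there, against 79.0% ± 5.89 of the other genes. Together the members took 1.34%, 1.19% and 2.01% of all fragments, and 3, 4 and 2 of them had fewer than 10 fragments.

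The most abundant member was evm.TU.CM024127.1.387, at rank 108, the highest rank of any member. It is listed from 11354256 to 11356988 on the minus strand of the sequence in its identifier, in the assembly used by the authors. Mu_E_1 had 1844 FPKM from 2473 fragments, Mu_E_2 had 2148 from 2742 and Mu_E_3 had 335 from 1234, so the level was high in all libraries and lowest in Mu_E_3. The nearest peak lay 6122, 6046 and 6141 bp from its start. The gene before it on the same strand ended 5521 bp away, had a mean FPKM of 606 and was touched by a peak in all 3 libraries.

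The members next in abundance differed in which library was low. The gene evm.TU.CM024108.1.103, with a listed length of 201 bp, had an FPKM of 765 in Mu_E_1, 175 in Mu_E_2 and 950 in Mu_E_3. Here Mu_E_2 stood below the other libraries. The gene evm.TU.CM024153.1.209 had 1057, 162 and 77.5, so that Mu_E_1 carried most of its mean, and its nearest peak was 61909, 75589 and 25971 bp away. The remaining 5 of the 8 most abundant members ranked from 226 to 284, and each stayed above an FPKM of 190 in every library. Among these, evm.TU.CM024122.1.227 (843, 659 and 318) followed 2782 bp behind a gene with a mean FPKM of 740 that was touched by a peak in all 3 libraries.

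**Figure D2:**
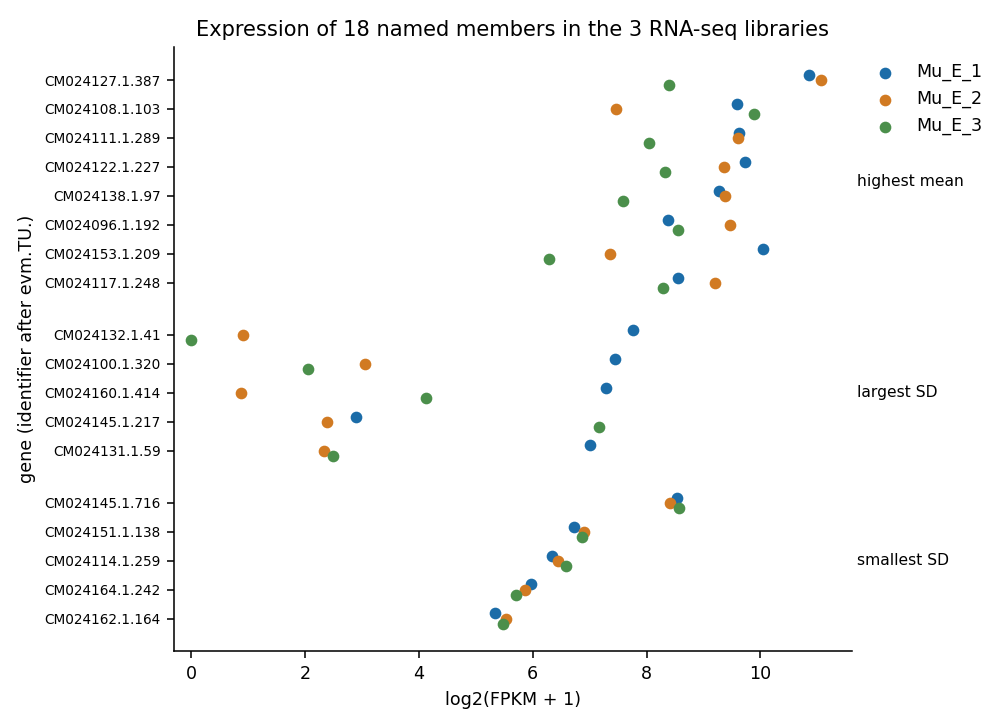
Expression as log2(FPKM + 1) on the horizontal axis for the 8 members with the highest mean FPKM, the 5 most variable and the 5 least variable by SD over the 3 RNA-seq libraries, 1 point per library. The points of the 5 members with the smallest SD fall together on this scale but not on own fragments, where Mu_E_3 is higher in each, while evm.TU.CM024132.1.41 runs from 217 FPKM in Mu_E_1 to 0 in Mu_E_3.

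The spread between crabs was like that of the other genes of these ranks. The SD of log2(FPKM + 1) over the 3 libraries had a median of 0.70 in the members and 0.72 in the other genes. The highest and lowest library differed by more than 2-fold in 120 of 188 members (63.8%), with 67.3% over all spliced genes of these ranks, and by more than 4-fold in 50 members (26.6%) against 306 other genes (29.1%). Mu_E_3 was the lowest library for 114 members (60.6%) and for 72.1% of the other genes, subject to the scaling described above.

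At the variable end, evm.TU.CM024132.1.41 had 217 FPKM in Mu_E_1, 0.876 in Mu_E_2 and 0 in Mu_E_3, which rest on 260, 1 and 0 fragments. It held its rank through Mu_E_1 alone. The same was true of evm.TU.CM024100.1.320, at 173, 7.33 and 3.15, and of evm.TU.CM024131.1.59, at 127, 4.05 and 4.64. In evm.TU.CM024145.1.217 the high library was Mu_E_3, with 6.43, 4.22 and 142 from 8, 5 and 484 fragments. At the stable end of the deposited FPKM, evm.TU.CM024145.1.716 had 369, 341 and 379, and evm.TU.CM024151.1.138 had 105, 118 and 116. This stability depends on the scaling, since on own fragments the first had 212, 176 and 542 and the second 60.1, 60.7 and 166, with Mu_E_3 highest. Mu_E_3 was also the highest library on own fragments in the other 3 of the 5 members with the smallest SD.

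The distance to the nearest peak varied widely among the members. From the start, the median distance was 7211.5 bp in Mu_E_1, 7235.5 bp in Mu_E_2 and 6680.5 bp in Mu_E_3, or 7042.5 ± 314 bp (SD, n = 3 libraries). A peak lay within 10 kb for 116, 121 and 129 members, and beyond 20 kb for 26, 22 and 19. With the peaks of all libraries pooled, 36 members had a peak within 3 kb and 74 (39.4%) within 5 kb, whereas 11 (5.85%) had none within 20 kb. These shares have no share at arbitrary positions beside them. At 20 to 30 kb upstream, the members still had a mean of 0.0856 peak summits per kb in a library, and the other genes had 0.110.

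**Figure D3:**
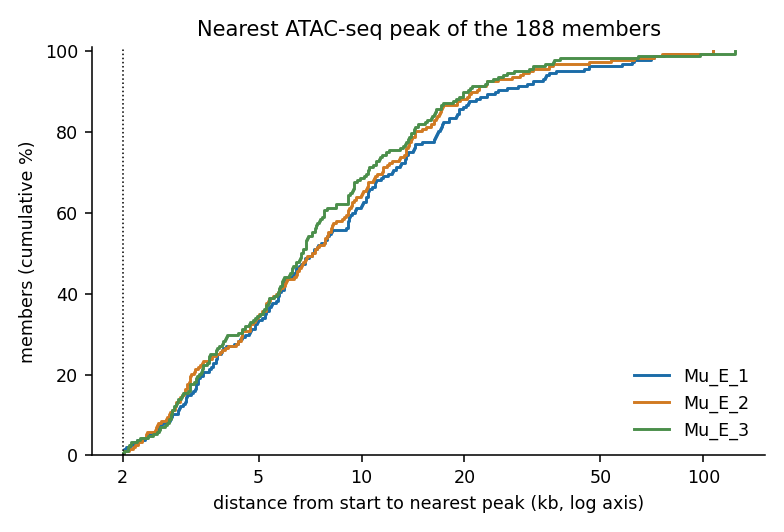
Cumulative share of the 188 members (vertical axis, %) by the distance from the gene start to the nearest peak (horizontal axis, kb, log scale), 1 line per ATAC-seq library. The dotted line marks the 2 kb of the rule; the 3 lines stay close together and pass the middle of the members between 6680.5 and 7235.5 bp.

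The members farthest from any peak included long and short genes. The gene evm.TU.CM024156.1.232 spans 96171 bp, from 7920909 to 8017079 on the minus strand of its sequence, and is 94.9% intron. It had an FPKM of 94.5, 90.9 and 12.9 in Mu_E_1, Mu_E_2 and Mu_E_3, which put Mu_E_3 lowest, and its nearest peaks were 106456, 106501 and 97608 bp from its start. The gene evm.TU.CM024167.1.20 spans 73772 bp, had 100.7, 146 and 43.1, and had its nearest peak 31745, 31794 and 31796 bp away. It began 88 bp behind a gene on the same strand with a mean FPKM of 57.8 that no peak touched either. By contrast, evm.TU.CM024096.1.347 spans only 4359 bp and had its nearest peaks 46411, 36243 and 36322 bp away, and evm.TU.CM024098.1.236 spans 4092 bp with peaks 34410, 27552 and 34488 bp away. Of the 350 genes of these ranks with a span above 20 kb, only 11 were members.

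Beyond the window that the rule cleared, peaks were unevenly placed around the members. From 2 to 4 kb upstream of the start, the members had 0.223, 0.197 and 0.239 peak summits per kb and gene in Mu_E_1, Mu_E_2 and Mu_E_3, against 0.0798, 0.0771 and 0.0984 at the same distance beyond the end of the gene. Upstream was higher than downstream in each library, by 2.59 ± 0.188 times (SD, n = 3 libraries). In the other genes the ratio was 0.908, 1.51 and 0.944, with upstream higher only in Mu_E_2. From 2 to 10 kb the ratio was 1.90 ± 0.110 in the members and 1.05 ± 0.199 in the other genes, and from 20 to 30 kb it was 1.02 ± 0.122 and 1.27 ± 0.0497. The rule read these same peak lists and cleared the 2 kb before the start. The contrast of upstream with downstream is therefore tied to the rule and is given without a test. In the 79 members with no listed gene within 5 kb before them on the same strand, the ratio from 2 to 10 kb was 2.29, a subset chosen after the data were examined.

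**Figure D4:**
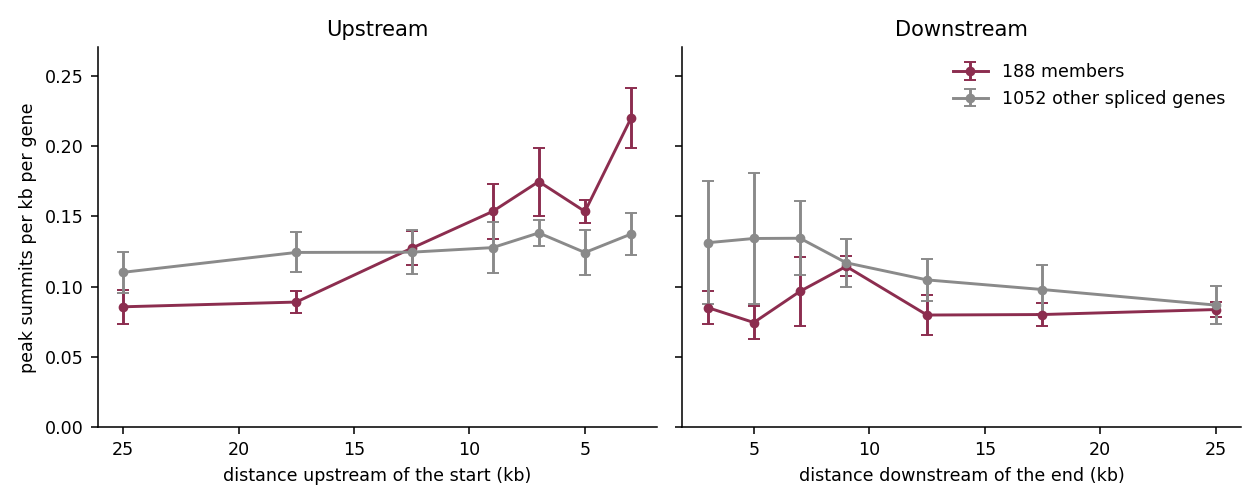
Peak summits per kb and gene (vertical axes) against the distance in kb upstream of the start (left) and downstream of the end (right), as mean ± SD over the 3 ATAC-seq libraries, for the 188 members and the 1052 other spliced genes. The members reach 0.220 at 2 to 4 kb upstream and stay at 0.0851 at 2 to 4 kb downstream, while the other genes have 0.137 and 0.131.

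The rule did not read the order of the genes. A listed gene ended within 5 kb before the start, on the same strand, in 109 of 188 members (58.0%), against 320 of 1052 other genes (30.4%) and 28.9% of all spliced annotated genes. Within 1 kb the counts were 65 members (34.6%) and 134 other genes (12.7%). Downstream on the same strand the groups were close within 5 kb, with 75 members (39.9%) and 405 other genes (38.5%). Within 1 kb downstream the members had fewer, with 25 (13.3%) against 202 (19.2%). A gene on the other strand that starts within 5 kb upstream was rarer next to members, at 21 (11.2%) against 232 (22.1%), but that count is tied to the rule, because a peak at the start of such a neighbour can fall in the member's own window. The same tie can raise the share with a same-strand neighbour, so the difference in gene order is given without a test.

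**Figure D5:**
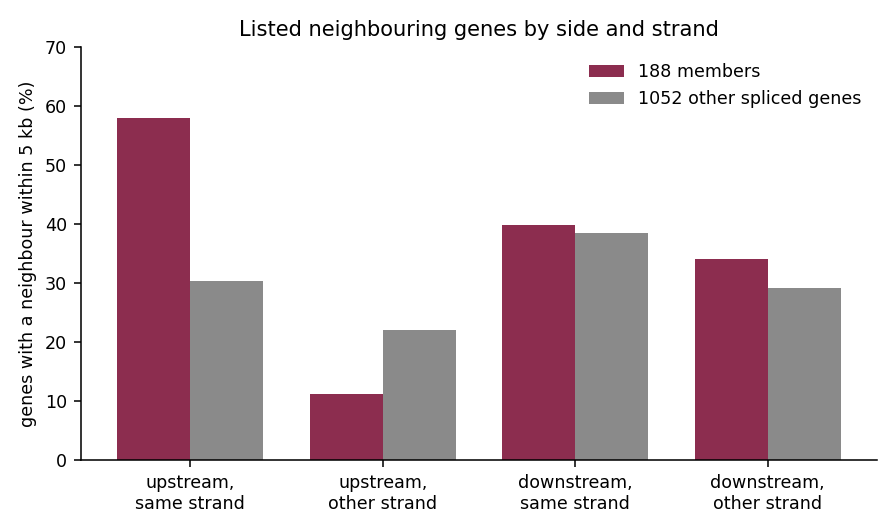
Share of genes (vertical axis, %) with a listed neighbour within 5 kb, by side and strand, for the 188 members and the 1052 other spliced genes. The groups differ most upstream on the same strand, at 58.0% against 30.4%, and are close downstream on the same strand, at 39.9% against 38.5%.

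The excess held in all span classes except the longest. A same-strand gene lay within 5 kb before 37 of 49 members (75.5%) with a span of up to 2 kb, against 45.9% of the other genes of that class. The shares were 54.7% against 34.5% from 2 to 5 kb, 56.5% against 35.3% from 5 to 10 kb, and 51.7% against 26.0% from 10 to 20 kb. Above 20 kb the members had 2 of 11 (18.2%) against 25.4%. Defining members by each ATAC-seq library alone gave 56.1% ± 1.68 against 28.0% ± 0.410 (SD, n = 3 libraries).

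The gene upstream was usually expressed as well. The median gap to it was 582 bp, against 1447 bp for the other genes with such a neighbour, and 100 of the 109 (91.7%) reached 1 FPKM in each of the libraries, against 75.6%. Its mean FPKM was within 2-fold of the member's in 69 of 109 cases (63.3%), against 37.2% for the other genes and against 34 of 75 (45.3%) for the members' downstream neighbours. The upstream gene had the lower mean FPKM in 89 of the 109 cases and the higher in 20. For the other genes it was lower in 262 of 320. Neither contrast in the 2-fold share was matched for gap or level. The median gap to the members' downstream neighbours was 1497 bp. Of those 75 neighbours, 18 were listed genes outside the annotation, against 2 of the 109 upstream neighbours. The upper quartile of mean FPKM was 110 over all members and 234 over all other genes. A peak lay within 2 kb of the upstream neighbour's own start in 67 of 109 cases (61.5%), against 212 of 320 (66.3%) for the other genes. This share is tied to the rule, because the window at a short neighbour's start can reach into the member's cleared window. For downstream neighbours the count was 21 of 75 (28.0%) against 221 of 405 (54.6%). It is tied to the rule too, because the window at such a start can reach into the member's cleared body.

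In 14 cases the upstream gene was itself a member, which made 27 genes, and both genes of a pair then lie in the same range of ranks by construction. All 14 pairs were within 2-fold of each other in mean FPKM, the gaps ran from 3 to 3602 bp with a median of 556 bp, and 5 gaps were under 100 bp. The pair evm.TU.CM024131.1.276 and evm.TU.CM024131.1.275, 22 bp apart and chosen here after their values were seen, had FPKM of 196, 241 and 54.7 and of 220, 235 and 49.2 in Mu_E_1, Mu_E_2 and Mu_E_3. Both genes had their lowest value in Mu_E_3. The opposite order was seen in evm.TU.CM024155.1.445 and evm.TU.CM024155.1.444, also chosen after their values were seen, with 20.6, 24.5 and 87.3 and with 23.6, 30.2 and 88.3. At gaps this small, fragments that reach across from one gene model into the next were not separated here.

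The gene models of the members also differed in their length. The listed length was a multiple of 3, the length of a codon, in 164 of 188 members (87.2%), in 680 of 1052 other genes (64.6%) and in 71.5% of all spliced annotated genes. The 160 genes of these ranks without introns were close to the members, with 137 (85.6%). A model made of coding sequence alone has such a length, and the start of such a model is its first codon instead of the start of transcription. In the members the share was 49 of 49 at spans of up to 2 kb, 86.8% from 2 to 5 kb, 89.1% from 5 to 10 kb and 75.9% from 10 to 20 kb, against 85.2%, 69.6%, 65.1% and 58.9% of the other genes. Above 20 kb it was 54.5% of the members and 62.2% of the other genes. Among the other genes the share was 63.2% with a peak in the window around the start and 72.6% with a peak in the body only. The part that the placement of the listed start plays in the missing peaks was not tested.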

How the data were processed

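Per the study's methods, the authors aligned ATAC-seq reads with BWA and ran MACS2 on every library separately; a shift of reads for the transposase is not given in the sources used here. The deposited lists hold each peak's interval, a score, a fold enrichment (a ratio) and −log10 p-values and q-values, and the score and the −log10 p were not used further. The largest q-value listed was 0.0500. RNA-seq reads were aligned with HISAT2 2.0.5 and counted with featureCounts 1.5.0-p3, and the deposited values are the authors' FPKM. Whether counting used strand, and the annotation version, are not given in the sources used here.

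Tables were handled with pandas 2.3.3 and numpy 2.4.6 under Python 3.11.15, and plots drawn with matplotlib 3.10.9. Peaks touched a gene at 1 bp of overlap. FPKM were compared as log2(FPKM + 1), which understates changes of low genes. Whole fragments were recovered with a tolerance of 0.05 of a fragment, which 100% of the values met, and gave the depth. Members, lists and comparisons were chosen with earlier results of these data known. The ATAC-seq and RNA-seq libraries of 1 number come from the same crab, by the study's methods. Named genes were the 8 members with the highest mean FPKM, the 5 longest, the 5 farthest from a peak, the 5 most variable and the 5 least variable by SD, the members at both rank limits, and 3 genes just outside the rule; not all are printed. None of 7 receptor identifiers looked for is a member. The steps were tested on simulated data. Of the 188 identifiers, 0 matched the RefSeq gene table, and no sequence is shown. Alternatives covered the peak threshold, windows, ranking, pseudocount, fragment minimum and each library left out.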

Additional observations from a re-analysis of the deposited data

How the results depend on the processing

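Of 92 alternatives, 56 left the result in place and 36 moved it, where in place means within 1 SD over the libraries, within 1.5 times for a count, or the same sign for the level difference. The 56 include all 8 alternatives for the level difference, most of which could not have reversed it. The pseudocounts and the scaling on own fragments keep the order of genes within a library. Leaving out an RNA-seq library there only averaged the remaining negative differences. These outcomes say nothing about robustness. The 188 members became 312 when peaks had to reach a q-value of 1e-05, 294 when a peak was needed in at least 2 libraries, 114 with 5 kb on either side of the start, 62 with gene body and start window both widened by 5 kb, and 102 when the ranks ended at 1000. Under the first 4 of these the share without a peak was 25.2%, 23.7%, 9.19% and 5.0%, against 15.2%. The ratio of median spans, members to other genes, was 0.379 and moved to 0.470 and 0.455 under the first 2. That of median listed lengths was 0.469 and moved to 0.508 and 0.509, or to 0.475 without joined models. With the strict peaks the median distance to the nearest peak was 7224 bp against 5993.5 bp, 63.3% of the members had a peak within 10 kb against 72.9%, and the ratio of summits upstream to downstream from 2 to 10 kb was 2.08 against 1.90.

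A same-strand gene upstream was found for 44.7% of the members within 2 kb and for 64.4% within 10 kb, against 19.3% and 41.0% of the other genes. The following were added after the data were examined. The upstream share was 54.9% without members behind another member, and 62.2% at spans of up to 10 kb, against 36.4% of the other genes. Lengths were a multiple of 3 in 91.9% of members at these spans, and the summit ratio was 2.29 without members behind a same-strand gene.

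Leaving out 1 ATAC-seq library gave 217 to 229 members, a share of 17.5% to 18.5%, span ratios of 0.391 to 0.427 and listed-length ratios of 0.475 to 0.498. It also gave median distances of 6365 to 6428 bp, 67.6% to 72.3% with a peak within 10 kb, and multiples of 3 in 83.4% to 87.1%. Leaving out 1 RNA-seq library gave shares without a peak of 14.7% to 15.5%, and differences in the median SD of log2(FPKM + 1), members minus other genes, of -0.15 without Mu_E_1 to 0.0024 without Mu_E_2, around -0.02; on own fragments it was 0.02, so its sign is not settled. With the replicate block, in which members were defined in each crab's own ATAC-seq library and read in the same crab's RNA-seq library, the level difference was -0.28 ± 0.03 (SD, n = 3 crabs) against -0.40. With 3 crabs a two-sided sign-flip test cannot fall under 0.25, and none is reported. Peaks under the caller's threshold were not seen.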
